A study of Mus musculus with 15 samples.

Results

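Imprinted growth genes were followed across newborn mouse epidermis and tongue, each from wild-type and Tmprss11 knockout animals. They were 10 genes taken by symbol out of 23420 mouse genes in the count table, and all 10 were found and tested in each of the 5 comparisons. Imprinted genes are transcribed mainly from a single parental copy, a choice set by DNA methylation at control regions that differs between egg and sperm. Many of them act on growth before and shortly after birth, are highly expressed in fetal mesodermal tissues and are shut down as growth slows. Copies expressed from the father often favour growth and copies expressed from the mother often restrain it. Reads were counted per gene, so the parental copy they came from could not be told apart.

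The set falls into several roles. Igf2 (paternal copy) encodes a growth factor of the insulin family, and H19 (maternal copy) is a noncoding RNA whose gene shares enhancers and a CTCF-bound control region with Igf2. Dlk1 (paternal) encodes a membrane protein related to Notch ligands that restrains adipocyte differentiation, and Meg3 (maternal) is the long noncoding RNA next to it. Grb10 (maternal in most tissues) encodes an adaptor that damps insulin and IGF receptor signalling, and Cdkn1c (maternal) encodes the cyclin-dependent kinase inhibitor p57. Plagl1 and Peg3 (both paternal) encode zinc finger proteins, and Plagl1 is known as a regulator of other imprinted genes. Mest (paternal) encodes a protein with an alpha/beta hydrolase fold, and Ndn (paternal) encodes necdin, a growth-restraining protein of the MAGE family.

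RefSeq promoter windows on GRCm38.p6, each 300 bases from 250 before to 50 after a start site, were matched by symbol for 8 of the 10 genes, in 15 windows. They are shown for 4 genes that were lower in epidermis by different amounts, Peg3 and Plagl1 less and Meg3 and Mest far more. Peg3 (chr7:6730370-6730669, minus strand) is the member window with GGGGCCCC, the core of the site reported for Plagl1, and Meg3 (chr12:109540746-109541045, plus strand) the one with TATAAA. Capitals mark the GGGGCCCC match of Peg3, which begins 201 bases before the start site, and the overlapping pair of TATAAA matches of Meg3, on opposite strands, which begin 29 and 25 bases before it. The windows of Plagl1 (chr10:13090582-13090881, plus strand) and Mest (chr6:30737800-30738099, plus strand) hold neither on either strand.
Peg3: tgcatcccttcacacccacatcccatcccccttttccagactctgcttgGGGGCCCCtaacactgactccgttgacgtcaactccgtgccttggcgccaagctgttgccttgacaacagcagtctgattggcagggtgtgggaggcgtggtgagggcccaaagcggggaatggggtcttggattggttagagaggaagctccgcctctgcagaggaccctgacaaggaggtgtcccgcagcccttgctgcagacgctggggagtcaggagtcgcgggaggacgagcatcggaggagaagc
Meg3: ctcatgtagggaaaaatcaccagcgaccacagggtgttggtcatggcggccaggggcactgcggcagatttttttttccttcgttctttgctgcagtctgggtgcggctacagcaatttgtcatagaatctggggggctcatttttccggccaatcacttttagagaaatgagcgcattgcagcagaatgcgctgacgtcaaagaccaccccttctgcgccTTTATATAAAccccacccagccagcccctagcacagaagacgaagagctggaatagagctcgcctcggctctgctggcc
Plagl1: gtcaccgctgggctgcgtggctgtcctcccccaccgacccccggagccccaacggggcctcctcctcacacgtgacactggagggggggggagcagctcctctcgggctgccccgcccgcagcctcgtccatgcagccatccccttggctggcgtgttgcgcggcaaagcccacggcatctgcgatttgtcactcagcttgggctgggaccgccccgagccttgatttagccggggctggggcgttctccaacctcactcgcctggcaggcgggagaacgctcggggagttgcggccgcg
Mest: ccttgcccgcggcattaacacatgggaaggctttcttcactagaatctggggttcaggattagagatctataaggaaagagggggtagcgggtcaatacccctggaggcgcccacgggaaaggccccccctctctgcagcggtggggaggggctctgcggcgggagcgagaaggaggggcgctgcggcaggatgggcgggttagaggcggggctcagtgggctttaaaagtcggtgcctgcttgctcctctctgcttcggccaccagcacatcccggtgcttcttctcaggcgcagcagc

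GGGGCCCC occurred on either strand in 1.08% of all 32851 RefSeq windows and in 1 of the 15 windows of these genes, and TATAAA in 13.6% and in 1 of 15. Of the windows shown, that of Plagl1 held 26 CpG dinucleotides, that of Mest 17, and those of Peg3 and Meg3 13 each. The median of all windows was 7. Mest had 3 windows, with 8, 17 and 17 CpG, and Meg3 had 2, with 13 and 1, so for these genes the count depends on the window. A match of letters is a description of the window and was not linked to any measurement here.

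Several of these RNAs also host microRNAs, small RNAs that guide repression through their seed, bases 2 to 8. RefSeq places miR-675 in H19, miR-483 in Igf2, miR-335 in Mest and miR-770 in Meg3. The arms below, with the seed in capitals, lie at chr7:142577112-142577133 and chr7:142654932-142654952 on the minus strand and at chr6:30741314-30741336 and chr12:109563710-109563731 on the plus strand. No seed is shared among them.
mmu-miR-675-5p: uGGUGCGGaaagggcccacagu
mmu-miR-483-3p: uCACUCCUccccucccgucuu
mmu-miR-335-5p: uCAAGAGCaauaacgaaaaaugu
mmu-miR-770-5p: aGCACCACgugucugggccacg

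Epidermis was represented by 3 wild-type and 4 knockout libraries and tongue by 4 of each genotype, all from pups at postnatal day 1. The genotype label reads wildtype or lists the Tmprss11 genes a to g as -/-, and the strain label, which lists the same 7 letters, is shared by all 15. The knockout carries edits in a cluster of 7 genes for membrane-bound serine proteases of surface epithelia. Whether it is a single edited line is not given in the sources used here. Epidermis was peeled off the dermis after warming in EDTA, whereas tongue was used whole, with its epithelium, muscle, connective tissue and vessels. By the A-numbers in the labels, read as animals, 9 animals were used and 6 gave both tissues, among them all 4 knockouts. No label says whether a range of A-numbers marks a litter or a day.

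Library totals ran from 10117819 to 17819195 reads. The targeted genes Tmprss11a and Tmprss11b were lower in knockout tongue, at 80.8 ± 5.78 against 229 ± 8.62 CPM and 13.6 ± 2.77 against 55.5 ± 6.44 CPM (SD, n = 4 each; edgeR adjusted p = 2.3e-05 and 1.2e-04). In epidermis neither was called: Tmprss11a stood at 1.92 ± 0.590 CPM in knockouts (n = 4) and 2.24 ± 0.076 CPM in wild type (n = 3), and Tmprss11b at 0.868 ± 0.379 against 3.70 ± 0.096 CPM (adjusted p = 1.0 each). Levels of these RNAs in epidermis thus did not check the genotype labels by the test. Epidermal markers (Krt1, Krt10, Krt5, Krt14, Lor, Flg2 and Dsg1a) summed to 32064 to 58142 CPM in epidermis and to 869 to 1131 CPM in tongue, which fits the tissue labels. Epidermis WT 1 stood apart, with 44.6% of its reads on mitochondrial ribosomal RNA (mt-Rnr1 with mt-Rnr2) against 20.1% to 23.8% in the other 6 epidermis libraries and 35.5% to 40.8% in tongue. Values below are CPM, counts scaled to a common TMM-adjusted library size, on a single scale for all 15 libraries.

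Per kilobase of exon, H19 was the most abundant member in every group and Ndn the least. In wild-type tongue (n = 4) the levels per kilobase were 4938 ± 199 CPM for H19, 344 ± 11.2 for Igf2, 173 ± 5.75 for Cdkn1c, 129 ± 4.01 for Mest and 104 ± 9.22 for Peg3. They went on with 83.9 ± 12.4 for Grb10, 60.4 ± 10.9 for Meg3, 44.5 ± 3.45 for Plagl1, 36.0 ± 3.01 for Dlk1 and 34.8 ± 1.41 for Ndn (all SD). Among neighbours in this order, Peg3 and Grb10 overlapped within 1 SD, as did Dlk1 and Ndn. Knockout tongue had the same order. The order rests on the union of all annotated exons, which for Meg3 is 18089 bases and so lowers its value per kilobase if most transcripts are shorter.

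The order in epidermis was another one. H19, at 621 ± 294 CPM per kilobase, and Igf2, at 43.2 ± 7.51, again came first in wild-type epidermis (n = 3), but Peg3 at 21.6 ± 5.57 and Plagl1 at 6.39 ± 1.63 came next. Grb10 at 1.68 ± 0.292, Cdkn1c at 1.203 ± 0.559, Mest at 0.660 ± 0.558, Meg3 at 0.508 ± 0.349, Dlk1 at 0.312 ± 0.264 and Ndn at 0.258 ± 0.0806 made up the rest. Each of these last 6 overlapped with its neighbour within 1 SD. Knockout epidermis again kept the same order.

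**Figure D1:**
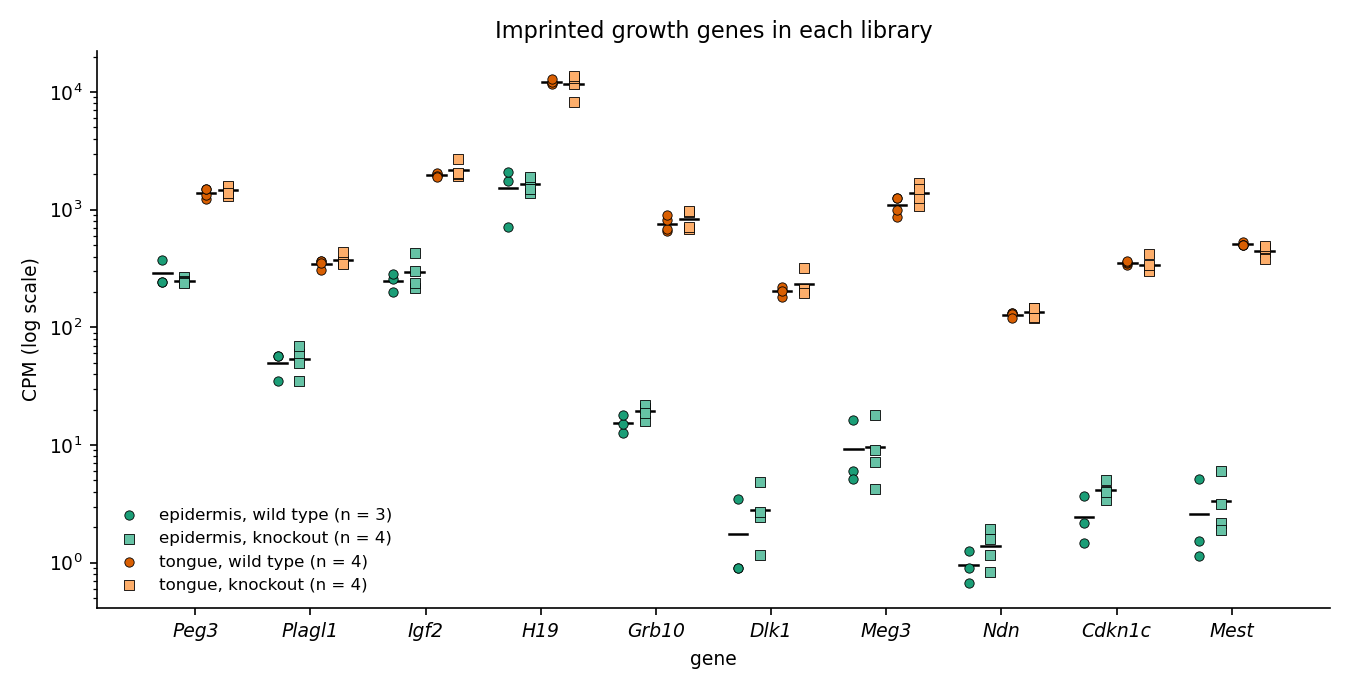
Level of each gene in CPM (log scale) in each of the 15 libraries, with a horizontal line at each group's mean. For every gene all 7 epidermis libraries (green) lie below all 8 tongue libraries (orange), with a gap that is narrow for Peg3 and widest for Mest.

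All 10 genes were lower in epidermis than in tongue, in wild-type and in knockout animals, and no epidermis library reached any tongue library of the same genotype. The test called 10 of 10 lower in wild type, where 31.6% of 16577 genes tested were called lower and 63.6% in either direction. It called 10 of 10 lower in knockouts, where 31.1% of 16398 were called lower and 63.8% in either direction. Groups in which every epidermis library was below every tongue library made up 32.1% and 29.1% of genes. The median log2 difference of the 10 genes was -6.25 in wild type and -5.91 in knockouts, beside 0.03 and 0.07 for all genes tested. A tissue difference in RNA of whole samples cannot tell fewer cells of a type from less RNA per cell. Both comparisons use libraries that also enter the knockout comparisons below. Neither fit held a term for the animal, although 6 animals gave both tissues.

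The gene pair at the Igf2 locus was among the less reduced. Igf2 (chr7:142650766-142666816, GRCm38, minus strand, as for all gene positions from GENCODE M21) stood at 201, 255 and 286 CPM in wild-type epidermis WT 1 to WT 3 and at 302, 428, 214 and 237 CPM in knockout epidermis KO 1 to KO 4. In tongue it stood at 2009, 2038, 1922 and 1908 CPM in WT 1 to WT 4 and at 1949.7, 2002, 2684 and 2032 CPM in KO 1 to KO 4. Igf2 was thus several-fold higher in tongue, with epidermis KO 2 the highest of the epidermis libraries and tongue KO 3 the highest of all. The log2 difference was -3.04 (SE 0.22, adjusted p = 3.3e-06) in wild type and -2.88 (SE 0.27, adjusted p = 2.2e-06) in knockouts.

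H19 (chr7:142575529-142578143, minus strand) lies 72.6 kb from Igf2 and is transcribed from the other parental copy. Its epidermis levels were 718, 1759 and 2108 CPM in wild type and 1397, 1818, 1894 and 1491 CPM in knockouts. Tongue held 11965, 11635, 12199 and 12794 CPM in wild type and 11771, 13067, 8204 and 13649 CPM in knockouts. The low libraries within their groups were epidermis WT 1 and tongue KO 3. The log2 difference was -3.05 (SE 0.41, adjusted p = 1.6e-04) and -2.83 (SE 0.27, adjusted p = 2.7e-06), which is 8.28-fold in wild type and 7.10-fold in knockouts, beside 8.25-fold and 7.34-fold for Igf2.

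The zinc finger genes Peg3 and Plagl1 had the other small differences. Peg3 (chr7:6703892-6730431, minus strand) stood at 373, 245 and 245 CPM in wild-type epidermis and at 270.1, 246, 242 and 239 CPM in knockout epidermis. In tongue Peg3 stood at 1238, 1344, 1489.6 and 1490.3 CPM in wild type and at 1310.1, 1553, 1592 and 1387 CPM in knockouts. Apart from a high WT 1, the epidermis libraries varied little. Its log2 difference was -2.31 (SE 0.25, adjusted p = 4.0e-05) in wild type and -2.55 (SE 0.18, adjusted p = 2.5e-07) in knockouts, or 4.96-fold and 5.87-fold.

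Plagl1 (chr10:13060504-13131694, plus strand) stood at 35.2, 57.3 and 57.3 CPM in wild-type epidermis and at 35.4, 59.5, 50.1 and 70.0 CPM in knockout epidermis. Its tongue levels were 363, 309, 367 and 354 CPM in wild type and 349.8, 363, 437 and 345 CPM in knockouts. WT 1 and KO 1 were the low epidermis libraries, and KO 3 the high tongue library. The log2 difference of Plagl1 was -2.85 (SE 0.21, adjusted p = 3.3e-06) and -2.80 (SE 0.21, adjusted p = 4.3e-07).

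The other 6 genes were reduced far more, by 43.3-fold to 193-fold over both genotypes. This division into 4 and 6 genes was made after the values were seen. Called genes at least 16-fold lower made up 8.17% of genes tested in wild type and 7.72% in knockouts, and those at least 64-fold lower 3.83% and 3.17%. The 10 genes had 6 past 16-fold and 5 past 64-fold in each genotype.

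Mest (chr6:30723547-30748465, plus strand) showed the largest difference in wild type. It stood at 1.13, 1.54 and 5.13 CPM in wild-type epidermis and at 2.19, 6.04, 3.16 and 1.90 CPM in knockout epidermis. Tongue held 534, 502, 504 and 501 CPM in wild type and 434, 472, 383.1 and 491 CPM in knockouts. The wild-type tongue libraries were close together, while the epidermis libraries spread widely, WT 3 and KO 2 being the high ones. The log2 difference was -7.59 (SE 0.52, adjusted p = 2.0e-06) in wild type and -7.10 (SE 0.36, adjusted p = 2.5e-08) in knockouts.

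The growth restrainers Cdkn1c and Ndn followed. Cdkn1c (chr7:143458339-143461050, minus strand) stood at 1.47, 2.18 and 3.70 CPM in wild-type and at 3.45, 5.07, 4.07 and 3.98 CPM in knockout epidermis, against 339.7, 349, 357 and 367 CPM in wild-type and 309.8, 302, 336 and 418 CPM in knockout tongue. Epidermis WT 1 was the lowest and KO 2 the highest of the epidermis libraries. The log2 difference was -7.17 (SE 0.31, adjusted p = 1.8e-07) and -6.38 (SE 0.21, adjusted p = 4.4e-09).

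Ndn (chr7:62346569-62350262, plus strand) stood at 0.679, 0.905 and 1.27 CPM in wild-type epidermis and at 0.836, 1.93, 1.58 and 1.15 CPM in knockout epidermis. In tongue it reached 133, 131, 129 and 121 CPM in wild type and 120.5, 122, 145 and 147 CPM in knockouts. Its lowest library, epidermis WT 1, rested on 6 reads. The log2 difference of Ndn was -7.06 (SE 0.22, adjusted p = 7.7e-08) in wild type and -6.63 (SE 0.24, adjusted p = 4.8e-09) in knockouts.

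The neighbours Dlk1 and Meg3 were both among the more reduced genes. Dlk1 (chr12:109452823-109463336, plus strand) stood at 0.906, 0.905 and 3.49 CPM in wild-type and at 2.45, 4.83, 2.71 and 1.15 CPM in knockout epidermis, against 206, 222, 181 and 205 CPM in wild-type and 209, 213, 320.4 and 197 CPM in knockout tongue. Meg3 (chr12:109541001-109571726, plus strand) stood at 6.0, 5.11 and 16.4 CPM in wild-type and at 7.15, 18.0, 9.10 and 4.21 CPM in knockout epidermis, against 863, 995, 1248 and 1264 CPM in wild-type and 1068, 1262, 1672 and 1501 CPM in knockout tongue. Epidermis WT 3 and KO 2 and tongue KO 3 were the high libraries of both genes. The log2 difference of Dlk1 was -6.81 (SE 0.47, adjusted p = 2.1e-06) in wild type and -6.43 (SE 0.38, adjusted p = 8.4e-08) in knockouts, and that of Meg3 was -6.93 (SE 0.51, adjusted p = 3.4e-06) and -7.17 (SE 0.46, adjusted p = 1.3e-07).

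The adaptor gene Grb10 (chr11:11930508-12038683, minus strand) lay between the smaller and the larger differences. It stood at 12.7, 15.2 and 18.0 CPM in wild-type and at 15.9, 20.8, 21.9 and 18.8 CPM in knockout epidermis. Tongue held 654, 688, 810.3 and 899 CPM in wild type and 684, 719, 958 and 982 CPM in knockouts. Its epidermis libraries were close together, and its tongue libraries fell into lower and higher ones in both genotypes. The higher ones, WT 3, WT 4, KO 3 and KO 4, were those of animals A383 to A387 (the A38x range). Tongue levels ran from 810.3 to 982 CPM in that range and from 654 to 719 CPM outside it. The part of A-number range in this split was not tested. The log2 difference was -5.68 (SE 0.25, adjusted p = 1.8e-07) and -5.44 (SE 0.22, adjusted p = 7.8e-09).

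**Figure D2:**
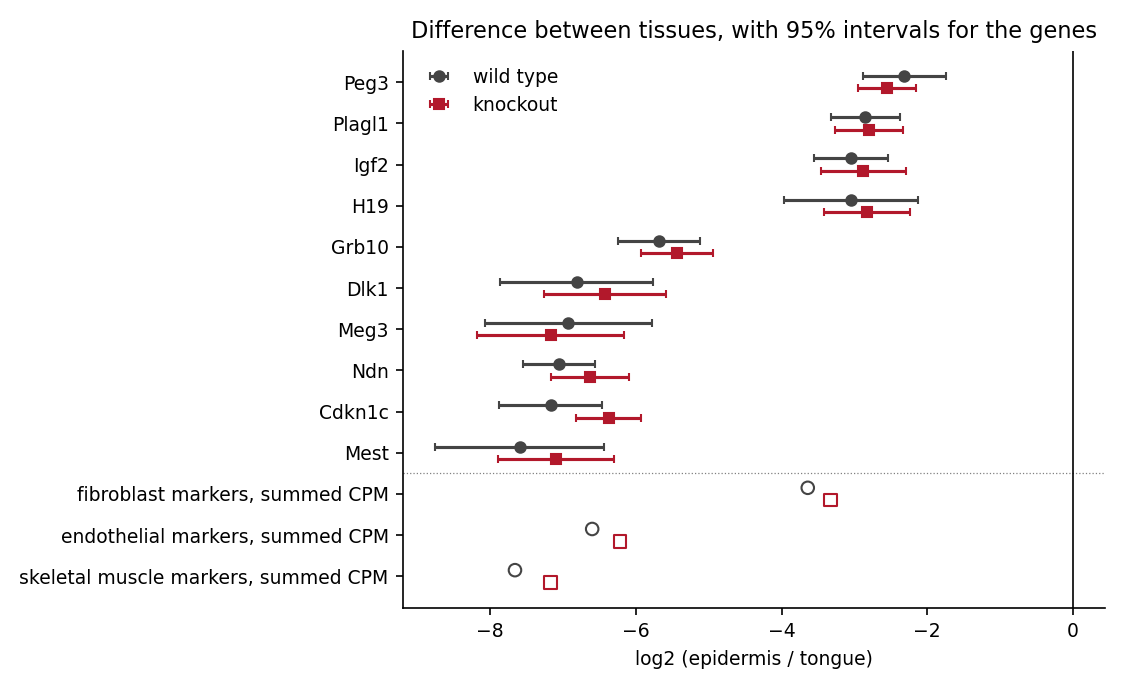
Log2 ratio of epidermis to tongue for each gene with its 95% interval (circles, wild type; squares, knockout), and below the dotted line the log2 ratio of summed CPM for 3 marker lists, without an interval. Peg3, Plagl1, Igf2 and H19 lie between -2.31 and -3.05, the other 6 genes between -5.44 and -7.59, and the marker sums between -3.33 and -7.66.

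The difference was also read within each of the 6 animals that gave both tissues, and all 10 genes were lower in the epidermis of each animal. Over these animals the log2 difference ran from -2.72 to -2.28 for Peg3, from -3.65 to -2.23 for Igf2 and from -3.19 to -2.11 for H19. At the other end it ran from -8.35 to -6.29 for Mest and from -8.48 to -6.13 for Meg3.

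Markers of several other cell types, though not of all, moved with these genes. All 10 skeletal muscle markers (Ttn, Myh3, Myh8, Acta1, Actn2, Tnnt3, Ckm, Myog, Myod1 and Pax7) were called lower in epidermis in both genotypes, and their sum was 83.8 to 652 CPM there against 23483 to 47354 CPM in tongue, a log2 difference of -7.66 in wild type and -7.17 in knockouts. Pax7 was at 0 in 5 of the 7 epidermis libraries and Myod1 in 3, and no other muscle marker was at 0 in any. The 4 endothelial markers, all called lower, differed by -6.60 and -6.22. The 8 fibroblast markers, all called lower, differed by -3.64 and -3.33, from 6866 to 8324 CPM in tongue to 462 to 892 CPM in epidermis, with none at 0. Summed tongue epithelium (-3.62 and -3.88), adipocyte (-4.84 and -3.40), blood (-5.12 and -4.25) and mast cell markers (-2.34 and -2.04) were also lower in epidermis. The adipocyte sum rested mainly on Fabp4, at 222 CPM in wild-type tongue and 5.42 CPM in wild-type epidermis. Pparg was also lower in epidermis, but Adipoq, Plin1 and Cidec were higher there in both genotypes. These 3 stood at 0.587, 0.512 and 0.232 CPM in wild-type epidermis and at 0.038, 0.018 and 0.038 CPM in wild-type tongue. The sums differed little for Schwann cells (-0.33 and -0.21) and macrophages (-0.20 and -0.20). The part of these cells in the tissue difference of the imprinted genes was not tested.

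Neighbours in the same imprinted domains, taken as the genes of the other imprinted lists within 1 Mb, differed in how far they shared the tissue difference. Around Dlk1 and Meg3, the noncoding RNAs Rian and Mirg (maternal) had log2 differences of -8.59 and -7.56 in wild type, and -7.84 and -7.24 in knockouts. Rtl1, a retrotransposon-derived gene of the paternal copy, had -7.83 and -7.94, all adjusted p at most 4e-06. Dio3, which encodes a thyroid hormone deiodinase, rested on 2 reads in wild-type epidermis. The genes of this domain were thus low together in epidermis irrespective of the parental copy they are transcribed from.

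The domain of Cdkn1c was mixed. Its neighbour Kcnq1ot1, the paternal noncoding RNA of that domain, had a log2 difference of -0.16 in wild type (adjusted p = 0.644) and -0.66 in knockouts (adjusted p = 0.0531) and was not called. Slc22a18, a transporter gene 12.7 kb from Cdkn1c, was higher in wild-type epidermis (log2 0.82, adjusted p = 0.0263) and not called in knockouts (0.44, adjusted p = 0.188). Kcnq1, a potassium channel gene, was lower, by -2.99 and -2.31, and Cd81, which encodes a tetraspanin, by -2.36 and -2.0. Tssc4 was lower by -0.72 (edgeR adjusted p = 0.0157) and -0.50 (edgeR adjusted p = 0.0219). Ascl2, at -0.72 and -0.35, was not called in either genotype. Phlda2 had 0.93 in wild type and was not called, and it has no value in knockouts. Cdkn1c exceeded each of these neighbours in the size of its difference, though the differences between genes were not tested.

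Peg3 and its neighbours also differed in size. Usp29, which starts 0.147 kb from Peg3 on the other strand, had log2 differences of -3.60 and -3.90, and Zim1, a maternal zinc finger gene, -7.20 and -7.00. Near Ndn, the MAGE family gene Magel2 had no read in the 3 wild-type epidermis libraries and 17.4 CPM in wild-type tongue, at least 270-fold lower against a floor of 3 reads over the group. Peg12 there had -5.97 and -5.54, while Mkrn3, a gene for a RING finger protein, had -1.41 and -1.40. Ddc, next to Grb10, had -8.18 and -7.56.

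Neighbours of Mest differed as well. Klf14, 208 kb away, was low in epidermis like Mest, with at most 3 reads in any epidermis library. Its means were 0.035 and 0.086 CPM in wild-type and knockout epidermis, against 17.5 and 14.9 CPM in tongue. Copg2, which encodes a coatomer subunit and lies on the opposite strand, was not lower. It was higher in knockout epidermis by 0.52 (adjusted p = 0.0124), and in wild type it had 0.31 (adjusted p = 0.112) and was not called. The ratio of Mest to Copg2 in CPM ran from 4.04 to 6.71 in the 8 tongue libraries and from 0.0136 to 0.0572 in the 7 epidermis libraries. The genes share 912 exon bases, and whether reads there were counted by strand is not given in the sources used here, so the low Mest counts of epidermis are uncertain to that extent. Igf2 shares most of its exon bases, 3596, with the protein-coding gene Gm49394 on the same strand, which is not in the count table. It also shares 98 exon bases with the antisense gene Igf2os, at 24.0 CPM in tongue. Cdkn1c shares more exon bases than that with the antisense gene Gm44732, at 1.203 CPM in tongue. Meg3 shares 1228 with the antisense gene Gm26906, which is not in the count table. The part of these overlaps in the counts of Igf2, Cdkn1c and Meg3 was not tested.

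Among the other imprinted genes, low levels in epidermis were common but not general. Over all genes tested, 31.6% were called lower in wild type and 31.1% in knockouts. Of 20 tested genes of the paternal copy 14 were lower and 0 higher in wild type (median log2 difference -2.48), and of 19 in knockouts 13 were lower and 0 higher (-2.24). Of 20 tested genes of the maternal copy 14 were lower and 2 higher in wild type (-2.82), and of 19 in knockouts 14 were lower and 1 higher (-2.36). The higher ones were Slc22a18 and Trappc9 (log2 0.76), a trafficking complex gene, in wild type, and Copg2 in knockouts. Calcr, the calcitonin receptor gene, had no read in wild-type epidermis and was at least 55.2-fold lower there.

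The wider IGF axis shared the direction. Of 17 genes tested, 12 were lower and 2 higher in wild type, and 10 lower and 2 higher in knockouts, with medians of -3.01 and -2.77. The share called lower over all genes tested was 31.6% and 31.1%. Igf1, the postnatal growth factor of the family, had log2 differences of -6.78 (SE 0.42) and -6.84 (SE 0.28), larger in size than those of Igf2. The binding proteins Igfbp3 (-4.43 in wild type) and Igfbp6 (-4.69 in knockouts) and the protease Pappa2 (-5.96 and -4.61) were lower, all adjusted p at most 6.2e-06. The RNA-binding proteins Igf2bp1 and Igf2bp3, which bind Igf2 RNA, were higher in epidermis, by 1.17 and 0.52 in wild type and by 1.13 and 0.61 in knockouts.

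Among factors that maintain imprints, more were higher in epidermis than lower. Of 10 tested, 6 were higher and 1 lower in each genotype, with medians of 0.59 and 0.58, where 5307 of 16577 genes tested were called higher in wild type and 5354 of 16398 in knockouts. The maintenance methyltransferase Dnmt1 was higher by 1.72 and 1.83, its partner Uhrf1 by 2.11 and 2.05, and the de novo methyltransferase Dnmt3b by 1.72 and 1.03. Zfp57, a zinc finger protein that protects methylated imprints, was the lower one, by -1.23 and -1.44. Uhrf1 and Dnmt1 are also known as genes of dividing cells, and the summed CPM of 6 cell cycle markers was 392 to 652 in epidermis and 236 to 413 in tongue. The part of cell division in these values was not tested.

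Relatives of the 10 genes by family went both ways. Of 11 tested, 2 were higher and 5 lower in wild type and 3 higher and 5 lower in knockouts, with medians of -0.14 and 0.15. Of all genes tested, 63.6% in wild type and 63.8% in knockouts were called in either direction. The counts are thus not read as particular to this list. Plagl2, the relative of Plagl1, was higher in epidermis by 2.26 and 2.30, Grb7, the relative of Grb10, by 1.85 and 2.11, and Dlk2 by 1.31 in knockouts. Maged2, a MAGE gene related to Ndn, was lower by -4.98 and -4.86. Magel2 and Igf1, given above, are counted in this list too.

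Between knockout and wild-type epidermis none of the 10 genes was called, and the groups overlapped for every gene. The count was 0 of 10 called by edgeR's quasi-likelihood test, with 0.0% of 16073 genes called, and 0 of 10 had an unadjusted p under 0.05 by edgeR, DESeq2 or limma-voom. Over all genes edgeR called 0 with 187 at an unadjusted p under 0.05, DESeq2 called 1 and limma-voom 0. Non-overlapping groups made up 2.22% of all genes. The 10 genes had a median log2 difference of 0.30 beside 0.00 for all genes, with 9 above 0.

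Estimates in epidermis were wide. Cdkn1c, at 4.14 ± 0.677 CPM in knockouts (n = 4) and 2.45 ± 1.14 in wild type (n = 3), had the largest log2 difference, 0.74 (95% interval -0.09 to 1.56, adjusted p = 1.0). Dlk1 had 0.63 (-0.75 to 2.01), Ndn 0.49 (-0.44 to 1.42), and Mest 0.33 (-1.0 to 1.66). Grb10, the most precise, had 0.33 (-0.12 to 0.78), and Peg3 -0.21 (-0.71 to 0.28). Igf2 had 0.26 (-0.36 to 0.89), H19 0.11 (-0.68 to 0.91), Plagl1 0.10 (-0.48 to 0.69) and Meg3 0.06 (-1.17 to 1.29). Differences of 2-fold thus lay inside the intervals of Dlk1, Ndn, Mest, Cdkn1c and Meg3, and outside those of Igf2, H19, Peg3, Plagl1 and Grb10.

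Single libraries shaped these values. KO 2 was the highest of the 7 epidermis libraries for 6 genes (Igf2, Dlk1, Meg3, Mest, Ndn and Cdkn1c), and WT 1 was the lowest for 7 (Igf2, H19, Mest, Ndn, Cdkn1c, Plagl1 and Grb10) and the highest for Peg3. KO 2 also had the highest muscle marker sum, 652 CPM, against 83.8 to 252 CPM in the others. It was highest as well for the summed markers of tongue epithelium (1231 against 306 to 1058 CPM), blood (33.6 against 6.63 to 22.6), adipocytes (23.9 against 6.23 to 15.9) and endothelium (7.80 against 2.13 to 3.91). WT 1 had the lowest fibroblast marker sum, 462 CPM, against 607 to 892 CPM. With each library left out in turn the log2 difference of Mest ran from -0.13 to 1.31, that of Meg3 from -0.44 to 0.80 and that of Dlk1 from 0.22 to 1.62. Among the A38x libraries alone (2 of each genotype), none of the 10 was called while 604 genes were, and Igf2, H19, Dlk1, Meg3 and Mest had values below 0, from -0.71 to -0.20. The part of these other cells, RNA quality or A-number range in these values was not tested.

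**Figure D3:**
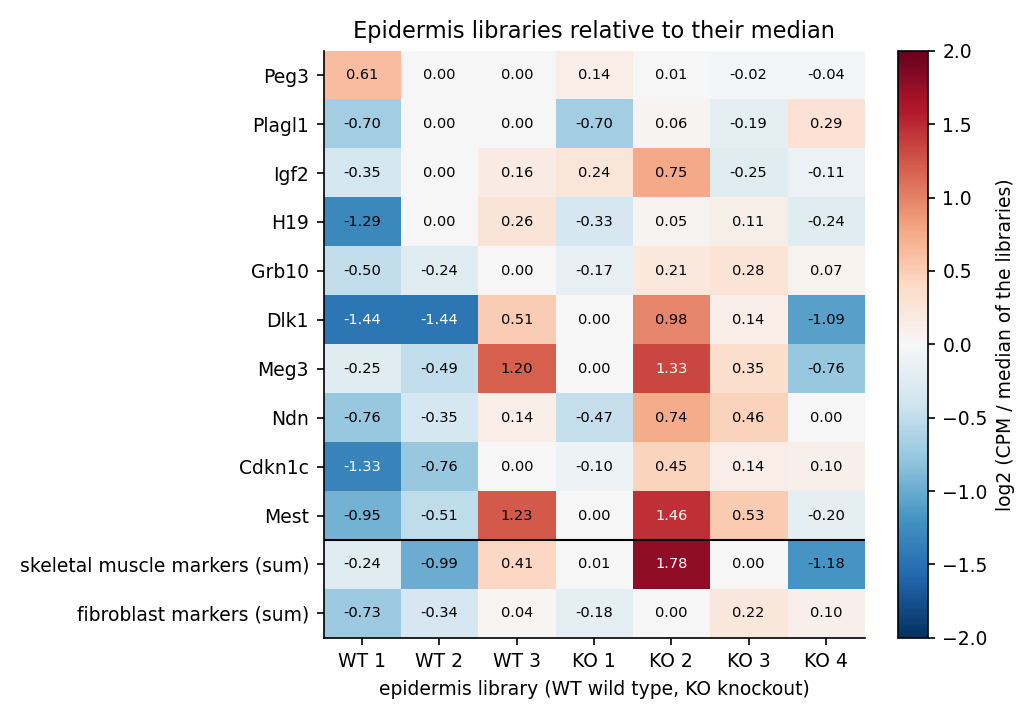
Log2 of each epidermis library's level over the median of the 7 epidermis libraries, for the 10 genes and, below the line, the summed muscle and fibroblast markers. KO 2 is high for Mest, Meg3 and Dlk1 and for the muscle markers (652 CPM), and WT 1 is low for 7 of the genes.

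In tongue the estimates were narrower and again none of the 10 genes was called. The count was 0 of 10 by edgeR, where 0.0127% of 15741 genes were called (2 genes, both lower). No gene had an unadjusted p under 0.05 by edgeR, and 1, Mest, had one by DESeq2 and by limma-voom. Over all genes 496 had an unadjusted p under 0.05 by edgeR, and DESeq2 called 4. The median log2 difference of the 10 genes was 0.07, beside 0.01 for all genes.

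Mest was the single gene of the 10 whose tongue groups did not overlap, where 2.22% of all genes did not overlap and 1.21% did so with knockouts lower. Its level was 445 ± 47.6 CPM in knockout and 510.0 ± 15.8 CPM in wild-type tongue (n = 4 each), a log2 difference of -0.21 (95% interval -0.44 to 0.02, adjusted p = 0.939). The highest knockout library, KO 4 at 491 CPM, lay just under the lowest wild-type library, WT 4 at 501 CPM. Meg3, at 1376 ± 265 against 1093 ± 196 CPM, had the largest estimate above 0, 0.32 (-0.04 to 0.68, adjusted p = 0.939), with overlapping groups.

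The remaining tongue estimates were 0.19 for Dlk1 (-0.14 to 0.52), 0.12 for Igf2 (-0.16 to 0.40), 0.12 for Grb10 (-0.21 to 0.44), 0.08 for Plagl1 (-0.16 to 0.33) and 0.05 for Peg3 (-0.20 to 0.30). Ndn had 0.04 (-0.18 to 0.26), Cdkn1c -0.07 (-0.32 to 0.19) and H19 -0.08 (-0.43 to 0.28). All 10 intervals in tongue thus excluded a 2-fold difference in either direction. Meg3 and Grb10 were lowest in tongue WT 1, WT 2 and KO 1, which also had the lowest muscle marker sums, 23483, 30335 and 26778 CPM against 38392 to 47354 CPM in the other 5. KO 2 was next lowest for Grb10, at 719 CPM, and its muscle marker sum was 44390 CPM. The part of muscle content or of A-number range in these values was not tested. Among the A38x tongue libraries alone (2 of each genotype) none of the 10 genes was called, while 15 genes were.

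No gene of the other imprinted, IGF axis, imprint maintenance or family lists was called between genotypes in either tissue. The receptor gene Igf1r had log2 0.49 in epidermis (SE 0.23, adjusted p = 1.0), and Igf2r, the receptor that clears IGF2, had 0.10 in tongue (SE 0.13, adjusted p = 0.939). Rian, the most abundant of the maternal list in tongue by CPM, had -0.02 there (SE 0.14, adjusted p = 0.982).

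**Figure D4:**
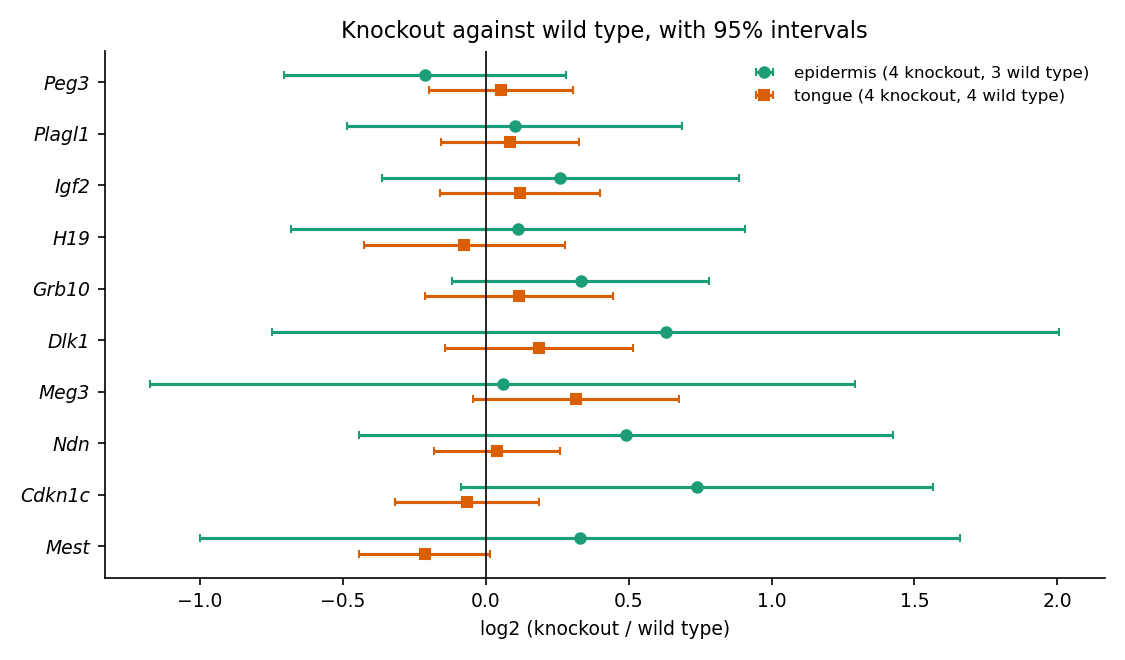
Log2 ratio of knockout to wild type for each gene with its 95% interval, in epidermis (circles) and tongue (squares). Every interval includes 0, and the epidermis intervals are wider than those in tongue, most of all for Dlk1, Meg3 and Mest.

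Whether the knockout difference itself depended on tissue was tested with an interaction term over all 15 libraries. The fit took the libraries as independent, although 6 animals gave both tissues. None of the 10 genes was called, with 0.0% of 17935 genes called and 299 at an unadjusted p under 0.05. Cdkn1c had the largest value, a log2 difference of differences of 0.78 (95% interval 0.13 to 1.44, unadjusted p = 0.0224, adjusted p = 1.0), and no other gene of the 10 had an unadjusted p under 0.05 by edgeR, DESeq2 or limma-voom. The others lay between -0.24 for Peg3 and Meg3 and 0.49 for Mest.

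Tongue KO 3 stood apart among the tongue libraries. It was the highest of the 8 for Igf2, Dlk1, Meg3, Peg3 and Plagl1 and the lowest for H19 and Mest. Its Igf2 level of 2684 CPM compared with 1908 to 2038 CPM in the other 7, and its H19 level of 8204 CPM with 11635 to 13649 CPM. The ratio of Igf2 to H19 was thus 0.327 in KO 3, and 0.149 to 0.175 in the wild-type tongue libraries.

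**Figure D5:**
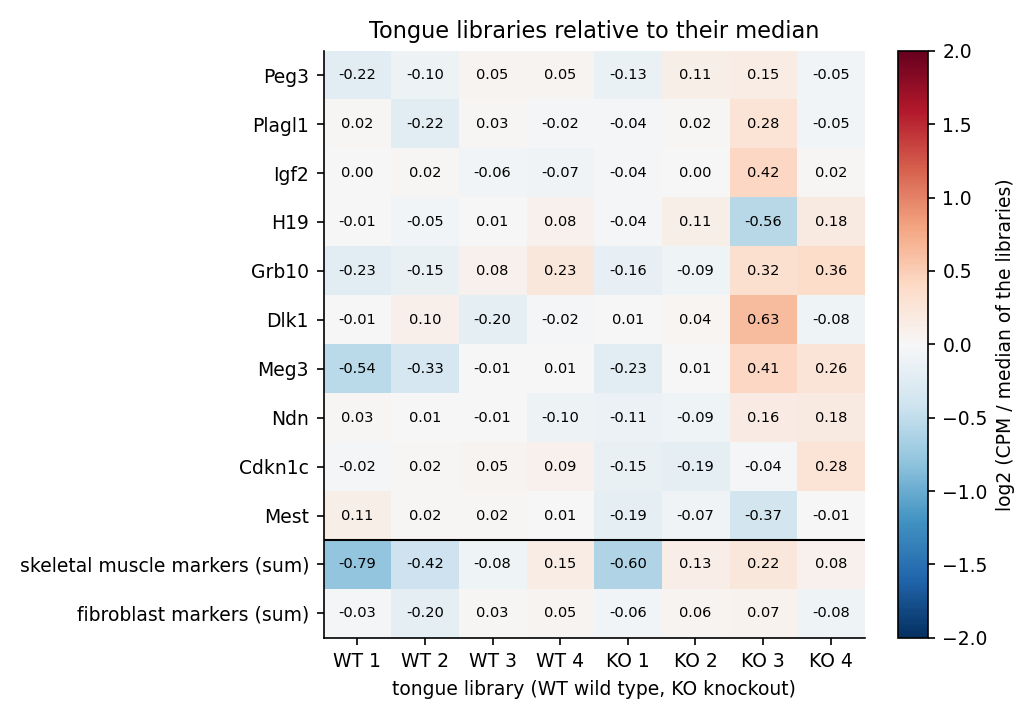
Log2 of each tongue library's level over the median of the 8 tongue libraries, for the 10 genes and, below the line, the summed muscle and fibroblast markers. KO 3 is high for Igf2 (2684 CPM) and Dlk1 (320.4 CPM) and low for H19 (8204 CPM) and Mest (383.1 CPM).

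The neighbouring pairs transcribed from opposite parental copies were compared over the libraries of each tissue, in 4 relations with p-values adjusted over them. Dlk1 and Meg3 varied together in epidermis, with Pearson r = 0.922 (exact permutation p = 0.00337, adjusted 0.0135, n = 7) and Spearman rho = 0.893 (exact permutation p = 0.0123, adjusted 0.0492). Without WT 1 and WT 2, the libraries farthest from the median of Dlk1, r was 0.962. The marker sums of muscle, tongue epithelium, blood, adipocytes and endothelium were also highest in KO 2, the library highest for both genes. That of fibroblasts was not, at 766 CPM in KO 2 and 892 CPM in KO 3. The part of these cells in the relation was not tested. The A38x range holds 4 epidermis libraries, too few for a value of its own. In tongue the same pair had r = 0.443 (exact permutation p = 0.299, adjusted 0.299, n = 8) and rho = 0.0238 (adjusted 0.977), and r = -0.538 without KO 3 and WT 3.

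Igf2 and H19 had r = -0.905 over the 8 tongue libraries (exact permutation p = 0.0699, adjusted 0.140) and rho = -0.452 (exact permutation p = 0.267, adjusted 0.535). Without KO 3 and WT 4 the value was r = 0.278, and without KO 3 alone 0.084, so the relation rested on KO 3. These values pool both genotypes, and on deviations from the genotype mean r was -0.925, which passed the threshold (adjusted permutation p = 0.0144, KO 3 included). In epidermis this pair had r = 0.468 (exact permutation p = 0.266, adjusted 0.299, n = 7) and rho = 0.286 (adjusted 0.741), with r = -0.198 without KO 2 and WT 1. Despite the large tissue difference of each gene, the mean log2 ratio of Igf2 to H19 in CPM lay between -2.62 and -2.42 in the 4 groups, at -2.50 ± 0.574 in wild-type epidermis, -2.52 ± 0.477 in knockout epidermis, -2.62 ± 0.106 in wild-type tongue and -2.42 ± 0.541 in knockout tongue (SD). The log2 ratio of Dlk1 to Meg3 varied more, at -2.39 ± 0.201, -1.72 ± 0.156, -2.41 ± 0.353 and -2.56 ± 0.264 in the same order. As a ratio it was 0.165 to 0.217 in wild-type and 0.272 to 0.352 in knockout epidermis. In tongue it was 0.145 to 0.239 in wild type and 0.131 to 0.195 in knockouts. Dlk1 rested on 8 to 66 reads in a wild-type and 20 to 60 reads in a knockout epidermis library. Differences in these ratios were not tested.

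The genes whose pattern over the 8 tongue libraries was most like that of Igf2, among 10511 genes at a mean of 5 CPM or more, were Foxk1 (r = 0.992), Sdk2 (0.987), Tmem131 (0.987), Pelp1 (0.987) and Ncdn (0.978). All 5 were highest in KO 3, as Foxk1 at 50.5 CPM against 19.3 to 23.7 CPM in the others. For H19 they were Pqbp1 (r = 0.990), Higd1a (0.986), Atp5k (0.986), Csnk2b (0.985) and Psmb6 (0.982), all lowest in KO 3, as Atp5k at 76.6 CPM against 148 to 178 CPM. Genes within the same libraries are not independent, and a single library sets these likenesses.

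The hairpin genes of the microRNAs named above were counted for Mest and Igf2. Mir335, inside Mest, had 0 reads in all 7 epidermis libraries, which allows up to 0.0265 CPM over them (3 reads, counting error only), and 0.795 to 2.96 CPM in the 8 tongue libraries. Mir483, inside Igf2, had 1 read in epidermis in all and 0.145 to 1.19 CPM in tongue. Reads over a hairpin can come from the host transcript, so these counts do not measure the mature microRNAs.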

How the data were processed

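RNA-seq counts of 15 libraries of epidermis and tongue from postnatal day 1 mice were analysed for 10 imprinted genes. Per the labels' protocols, SMARTer V4 cDNA went into paired-end TruSeq v2 libraries, and strand is not mentioned. The submitters' processing notes name STAR 2.5.2a and the builds GRCm38.p3 and mm10, besides DESeq2, edgeR and limma. How reads were assigned to genes, and with which annotation, is not given in the sources used here. Raw counts deposited by the authors were tested. Their second table, TMM-scaled signal values deposited by the authors, served only to compare levels.

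Groups and replicate numbers came from sample titles. The 2 transgene entries were left out. For each comparison, low genes were removed by filterByExpr (minimum count 10), and the rest were TMM-scaled and tested with edgeR 4.0.16 (quasi-likelihood, robust, two-sided) in R 4.3.3. P-values were adjusted by Benjamini-Hochberg over all genes tested, at a threshold of 0.05, and intervals are at 95%. CPM used TMM factors of all 15 libraries, and lengths and positions came from GENCODE M21. Library totals of 10117819 to 17819195 reads set the counting precision, and intervals cover only the spread between samples. The labels do not say that samples of a group came from separate animals beyond their A-numbers, so p-values reflect only the spread among these samples, which may be technical. Same-numbered knockout samples of both tissues carry the same A-number and were taken as the same animal, and the correlations of their deviations were 0.0628, 0.227, -0.185 and 0.16.

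The alternatives were DESeq2 1.42.0, RLE factors, no filter, removal of mt-Rnr1 and mt-Rnr2, limma-voom (limma 3.58.1), blocks by replicate number, A-number range or animal, the A38x libraries alone and leaving out each library. Correlations used log2 CPM with a prior of 1 CPM and exact permutation, and ratios a prior of 0.1 CPM. From each other list the text names up to 3 genes a direction past the threshold with the largest differences at a mean CPM of 1 or more, or, where none passed, the 2 of highest mean CPM. Neighbours were taken from these lists by position, and other genes were named after their values were seen. The members and lists were chosen with earlier results of these data known. The fitting steps were tested on simulated data.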

Additional observations from a re-analysis of the deposited data

Results flagged for a closer look

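Among 30 groups of 4 libraries in which the gap of the highest or lowest library was set against the range of its group (Dixon's criterion at 95%), 3 held a library far from the others, where chance gives about 1 in 20 groups. In knockout tongue, KO 3 had Igf2 at 2684 CPM with the other 3 between 1949.7 and 2032 CPM. The same library had Dlk1 at 320.4 CPM with the others between 197 and 213 CPM. KO 3 was also the extreme library for the genes named above as most like Igf2 or H19, which were picked for that pattern. In wild-type tongue, WT 1 had Mest at 534 CPM with the others between 501 and 504 CPM.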

How the results depend on the processing

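The tissue difference of all 10 genes kept its direction and its call in all 15 other settings of each genotype, with log2 differences from -8.58 to -2.22 in wild type and from -8.00 to -2.52 in knockouts. No setting called any of the 10 genes between genotypes. Counts of called genes moved with the setting. In epidermis they were 1 by DESeq2, 1 when blocked by A-number range and 604 in the A38x libraries alone. In tongue they were 4 by DESeq2 and 15 in the A38x libraries. For the difference of the knockout effect they were 1 by DESeq2, 19 in the A38x libraries and 0 to 1 when leaving out 1 library. The causes were not tested.

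Estimates that were not called and changed sign follow. In the A38x epidermis libraries Igf2 had -0.27, H19 -0.21, Dlk1 -0.20, Meg3 -0.71 and Mest -0.41. Blocked by A-number range, Meg3 had -0.42 and Mest -0.05, and limma-voom gave Meg3 -0.02. In the A38x tongue libraries Peg3 had -0.02 and Cdkn1c 0.04. For the difference between tissues the A38x libraries gave Igf2 -0.57, H19 -0.01, Dlk1 -0.62, Mest -0.21 and Plagl1 -0.06. Leaving out 1 library in epidermis gave H19 -0.22 to 0.42, Meg3 -0.44 to 0.80, Peg3 -0.34 to 0.04, Mest -0.13 to 1.31 and Plagl1 -0.08 to 0.23. In tongue it gave H19 -0.16 to 0.07 and Ndn -0.01 to 0.09. For the difference between tissues it gave Igf2 -0.09 to 0.31, H19 -0.12 to 0.51, Dlk1 -0.01 to 1.43, Meg3 -0.76 to 0.51, Peg3 -0.34 to 0.01 and Plagl1 -0.14 to 0.19.

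With the replicate block no gene of the 10 gained or lost a call, and Plagl1 in epidermis had -0.04. Outside the knockout tissue pairs the numbers mark different animals, with correlations of deviations from -0.156 to 0.587. Leaving out 1 tongue library, r of Igf2 and H19 ran from -0.961 to 0.084 and that of Dlk1 and Meg3 from -0.449 to 0.598. On deviations from the genotype mean, Igf2 and H19 in tongue had r = -0.925 (adjusted permutation p = 0.0144, KO 3 included). The authors' deposited values were 1.05 to 1.13 times those given here. Depth limits Ndn, Dlk1, Mest and Cdkn1c most, with as few as 6 reads in an epidermis library.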
